A study of Arabidopsis thaliana with 27 samples.

Results

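The acute shade response of the wild type is described here from 6 RNA-seq libraries out of 27 in the series: 3 of Col-0 seedlings kept in white light of high red to far-red ratio (HRFR) and 3 of Col-0 seedlings given 1 h of light of low red to far-red ratio (LRFR), a simulation of neighbor shade. Members were taken by their labels, and the response was read across all genes. Col-0 is the Arabidopsis thaliana reference accession and carried no introduced allele. All seedlings were 7 days old, had grown on 1/2 MS medium without vitamins, and were collected at the same time of day, so the LRFR group differed by added far-red light over the last hour. Both mutant genotypes of the series are used for comparison, each with 3 HRFR and 3 LRFR 1 h libraries of the same age. Libraries of 25 h of LRFR, 3 per genotype, enter the fits, and those of Col-0 are used for the levels at that time. The triple mutant pif457 carries pif4-101, pif5-3 and pif7-1, and hfr1 carries hfr1-101. Every library is a separate pool of whole seedlings, so p-values measure the spread between pools, and fewer cells of a type cannot be told apart from less RNA per cell in any result. Nothing in the libraries separates cotyledons, hypocotyls and roots.

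Phytochrome B, the main sensor of the red to far-red ratio, is active in sunlight and inactivated by the far-red light that leaves transmit. Active phytochrome holds back PHYTOCHROME INTERACTING FACTORs (PIFs), bHLH transcription factors that bind the G-box CACGTG and the PBE-box CACATG. Under shade PIF4, PIF5 and PIF7 act on genes of auxin production and cell elongation, and several of their targets, HFR1 and PAR1 among them, encode HLH proteins that restrain PIFs in turn.

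The upstream DNA of a few rising genes, chosen after their letters and values were seen, is shown first, because the letters that PIFs recognise lay far from the start in some of these genes and close to it in others. All stretches are RefSeq TAIR10.1 sequence on the strand of the gene, written 5′ to 3′, with each G-box (CACGTG) and each PBE-box (CACATG, or CATGTG on the other strand) in capitals. Positions count bases before the annotated start. The PIL1 stretch (chr2:19298928-19299098, minus strand) holds 3 G-boxes at 1222, 1211 and 1093 bases. The stretch of AT3G21320 (chr3:7503358-7503463, minus strand) holds 3 G-boxes at 1558, 1532 and 1486 bases, inside the interval this gene shares with AT3G21330. A further G-box of AT3G21320, outside the stretch, lies close to the start at 132 bases. The HFR1 stretch (chr1:468855-468900, minus strand) holds the G-box at 1000 bases, with AT1G02350 on the far side of the same interval. Another G-box of HFR1, at 1419 bases, lies outside the stretch. In IAA5 (chr1:5366907-5367117, minus strand) 3 PBE-boxes, 2 of them overlapping, lay upstream of a G-box at 427 bases. The SAUR-like gene AT1G29490 (chr1:10319482-10319672, plus strand) had no G-box in 3000 bases, and its stretch holds 3 PBE-boxes at 243, 194 and 79 bases.
PIL1: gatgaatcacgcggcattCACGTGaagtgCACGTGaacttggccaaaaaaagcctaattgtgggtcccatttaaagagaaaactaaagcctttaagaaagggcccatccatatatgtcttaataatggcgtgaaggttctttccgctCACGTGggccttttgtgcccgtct
AT3G21320: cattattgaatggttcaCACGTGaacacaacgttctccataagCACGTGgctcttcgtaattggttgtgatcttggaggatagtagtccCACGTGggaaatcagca
HFR1: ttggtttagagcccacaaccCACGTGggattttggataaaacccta
IAA5: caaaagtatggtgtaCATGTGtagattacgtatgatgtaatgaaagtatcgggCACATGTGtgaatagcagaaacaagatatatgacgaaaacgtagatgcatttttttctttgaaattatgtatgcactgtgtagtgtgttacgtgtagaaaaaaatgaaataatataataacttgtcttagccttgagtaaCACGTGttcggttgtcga
AT1G29490: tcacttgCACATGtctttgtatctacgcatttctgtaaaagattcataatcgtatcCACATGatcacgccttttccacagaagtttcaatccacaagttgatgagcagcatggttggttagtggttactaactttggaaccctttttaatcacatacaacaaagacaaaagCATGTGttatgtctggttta

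The 6 libraries held 25203293 to 33727955 reads in genes, with 6.56% to 6.74% of reads in no gene and a chloroplast share of 0.0441% to 0.0843%. Levels are given as CPM, read counts scaled to the size of the library but not to gene length. The replicates of a group differed little for most genes, with a common biological coefficient of variation of 0.101 over the 18 libraries fitted. HRFR replicate 1 stood apart from its group along the main axis of deviation from the group means, at −32 against 15.7 and 16.3 for the other two, together with the Col-0 25 h library of replicate 1 at −40.1. Counts of calls are given with and without these 2 libraries, an alternative added after the data were seen. Of the labels, pif457 could be checked at its targets: in HRFR, PIF7 was counted at 2.83 to 3.88 CPM in pif457 against 49 to 53.2 CPM in Col-0, PIF5 at 11.6 to 13.8 against 147 to 167 CPM, and PIF4 at 51.1 to 51.4 against 102 to 105 CPM. HFR1 reads did not check the libraries labelled hfr1, where HFR1 was counted at 19.5 to 20.3 CPM in HRFR against 13.7 to 18.4 CPM in Col-0.

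After 1 h of LRFR more genes of Col-0 passed the fold threshold upward than downward. Of 20680 genes tested, 290 were higher (1.40%) and 131 lower (0.633%) in edgeR's quasi-likelihood test, where a call needed a log2 fold change beyond ±0.6 with an adjusted p below 0.05. A further 134 higher and 217 lower genes had an adjusted p below 0.05 but a smaller change. The median log2 fold change was 1.15 among rises and −0.82 among falls, and 35 rises went beyond 3 on this scale. The only fall beyond −3 was CYP86C1, a cytochrome P450 gene named after its values were seen, with 19, 2 and 25 reads in HRFR and 2, 1 and 0 reads in LRFR. The low starting level of many rising genes is visible in the counts: 47 of the 290 stayed under a mean of 1 CPM in HRFR, against 4 of the 131 that fell (CYP86C1, AT5G54148, AT1G23985 and LSU3). The HRFR median was 6.7 CPM among rises, 13.6 CPM among falls and 12.7 CPM over all genes tested. The direction of a call partly fixes this contrast. A gene this low in HRFR can pass the filter on low counts through its LRFR level, but has little room to fall. For 288 of the rises and 130 of the falls the libraries of both groups did not overlap, a pattern that 6.92% of all tested genes showed upward and 7.09% downward, and which the calls themselves favour. Without HRFR replicate 1 and the 25 h library of replicate 1, 305 genes were higher and 123 lower, of which 265 and 103 were among the calls above. The fall count depended on single libraries, with 199 genes without LRFR 1 h replicate 3 and 88 without LRFR 1 h replicate 1.

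**Figure D1:**
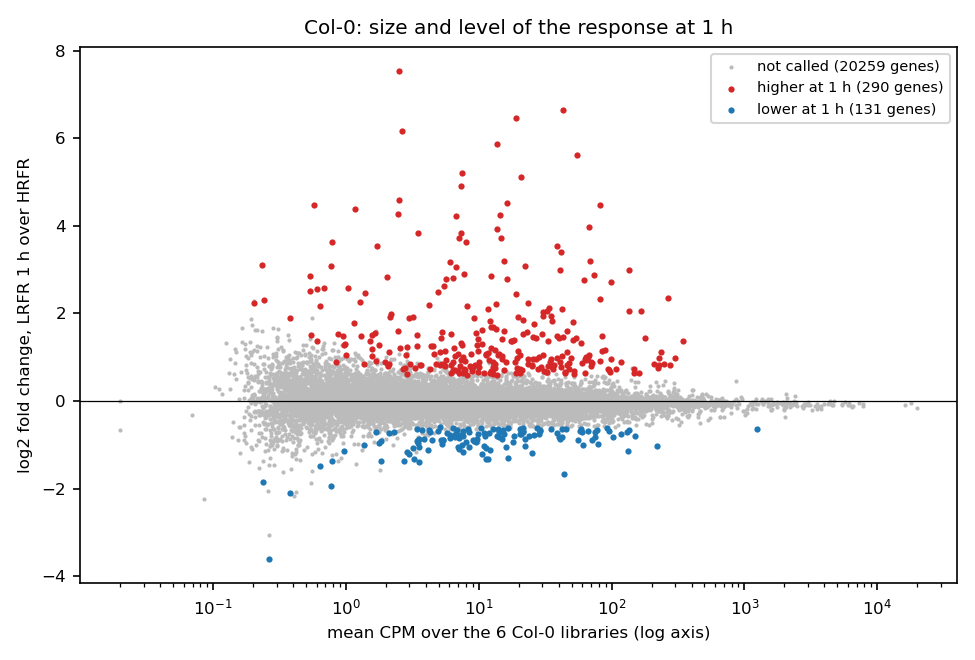
Log2 fold change of each tested gene after 1 h of LRFR in Col-0 against its mean CPM over the 6 libraries (log axis), with called genes in color; 2 genes with a mean below 0.02 CPM are drawn at 0.02. The 290 rises reach 7.53 and spread over low and high levels, whereas most of the 131 falls sit between −0.6 and −2.

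The level of each library was compared on genes chosen without the Col-0 contrast, namely those called at 1 h in the libraries labelled hfr1. Over 335 such genes that rose there, the mean log2 level relative to the HRFR mean was 1.16, 1.18 and 1.36 in the 3 Col-0 LRFR libraries and −0.01 to 0.01 in the 3 HRFR libraries. LRFR replicate 3 was the highest library, and the groups did not overlap (difference 1.23, exact two-sided permutation p = 0.1, the smallest that 3 against 3 libraries can give). Over 182 genes that fell in hfr1, the same replicate was again the highest LRFR library, with −0.75, −0.75 and −0.57 in LRFR against 0.10, −0.08 and −0.03 in HRFR (difference −0.69, exact p = 0.1). LRFR replicate 3 thus lay above the other LRFR libraries in both sets, so these values do not show a stronger response in it. The cause of this shift was not tested.

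Several of the largest rises started from few reads. AT3G21320, annotated as an EARLY FLOWERING protein, was covered by 1, 0 and 1 reads in HRFR and 124, 136 and 132 reads after LRFR, a ratio of 225 with a 95% exact interval of 62 to 1870 that covers counting error only. Its divergent neighbor AT3G21330 encodes a bHLH protein and went from 0.704, 0.943 and 0.925 CPM to 69.7, 79.8 and 106 CPM (log2 fold change 6.64 ± 0.29 SE, adjusted p = 5.91e-11). GONST5, a Golgi nucleotide sugar transporter, was at 0.0306 to 0.0991 CPM in HRFR and 4.85 to 5.68 CPM in LRFR. FLP1, a small FLOWERING PROMOTING FACTOR-like protein, went from 0.214, 0.472 and 0.694 CPM to 22.2, 24.5 and 33.8 CPM. AT1G03990, which is annotated as a long-chain fatty alcohol dehydrogenase, rose from 0.0393 to 0.132 CPM to 1.24 to 3.2 CPM, and AT5G66580, of uncharacterized function, from a higher level of 8.51, 7.58 and 7.86 CPM to 113, 120 and 146 CPM (3.98 ± 0.11, adjusted p = 2.65e-13). In each of these genes all LRFR libraries stood above all HRFR libraries. For all but AT5G66580 the naming rule required this, so it adds no support.

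**Figure D2:**
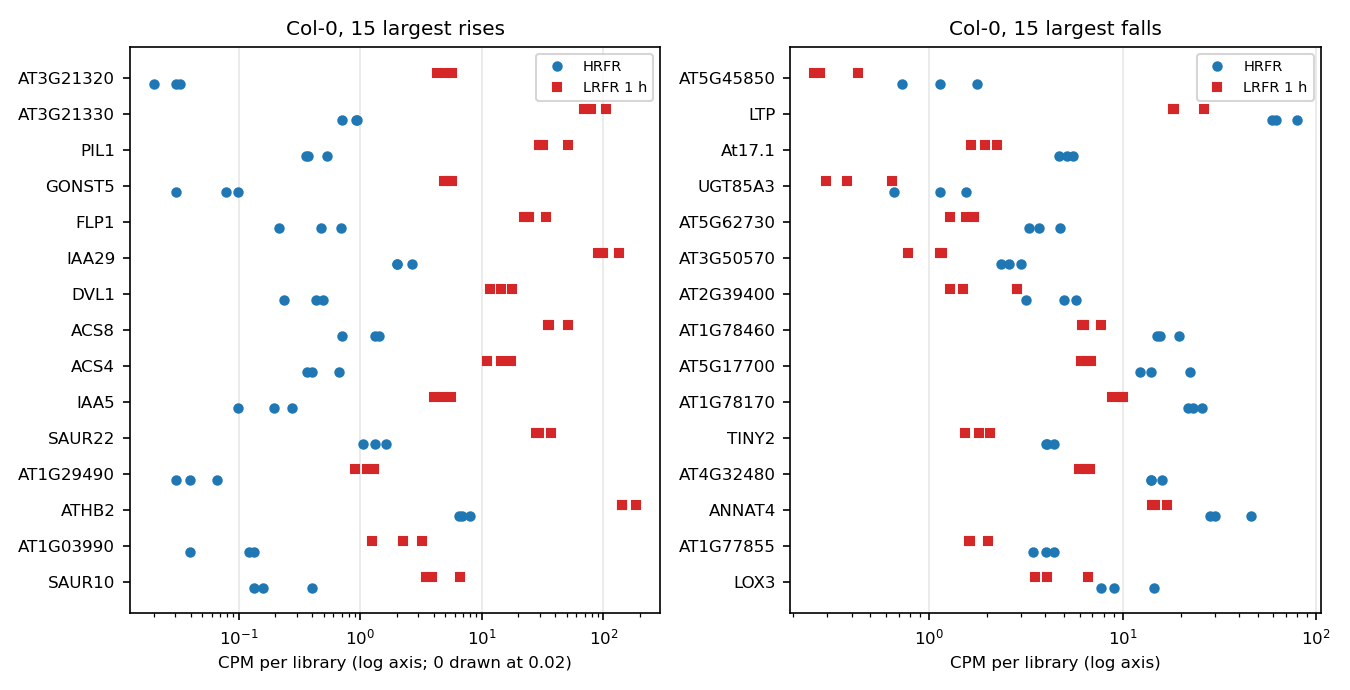
CPM in each Col-0 library (log axis, 0 drawn at 0.02) for the 15 largest rises and 15 largest falls that did not overlap between groups and reached a mean of 1 CPM in the higher group; circles are HRFR and squares LRFR 1 h. Rises such as PIL1 (0.354 to 0.529 CPM against 29.4 to 51.4 CPM) leave wide gaps between the groups, and falls such as LOX3 (7.7 to 14.6 CPM against 3.52 to 6.62 CPM) leave narrow ones.

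Among light-sensing genes, transcripts of the sensor and of a transport helper rose while those of several PIFs were lower. FHL, which helps carry phytochrome A into the nucleus, rose from 1.47, 1.22 and 1.82 CPM to 9.08, 8.84 and 10.3 CPM (2.63 ± 0.22, adjusted p = 3.4e-07). PHYB rose from 94, 93.1 and 98.5 CPM to 240, 238 and 303 CPM, and PHYA was at 87 to 91.4 CPM before and 108 to 111 CPM after, a log2 fold change of 0.31 that is below the fold threshold. These were the 2 called of 10 tested phytochrome genes and partners. Of 7 PIF genes, 2 fell and none rose, or 1 without the 2 libraries that stood apart. PIF7 fell from 53.2, 49 and 51.7 CPM to 27.4, 26.9 and 32.2 CPM (−0.83 ± 0.09, adjusted p = 8.62e-06). PIF1, a PIF of seed germination and greening, fell from 32.7, 31.9 and 33.7 CPM to 19.7, 16.6 and 21.5 CPM (−0.77 ± 0.09, adjusted p = 3.29e-05). PIF4 was lower in every LRFR library, at 66.7 to 83.2 CPM against 102 to 105 CPM, with a log2 fold change of −0.47 (adjusted p = 0.000223) that is inside the fold threshold. PIF5 was at 117 to 138 CPM against 147 to 167 CPM (−0.31, adjusted p = 0.081), and PIF3 and PIF6 had log2 fold changes of −0.15 and 0.59 without passing the test. None of 7 genes of the HY5 and COP1/SPA repressor module of light signalling was called. Of 16 tested B-box genes, which encode zinc finger factors of light signalling, only BBX29 was called (7.01 to 8.19 CPM against 20.4 to 26.8 CPM). BBX14, outside that list and chosen after its values were seen, fell from 120, 132 and 140 CPM to 73.2, 70.3 and 76.1 CPM. PKS4 rose and PKS1 fell among 9 blue light and phototropism genes, with log2 fold changes of 1.14 and −0.79; both encode phytochrome kinase substrate proteins that bind phototropins. The phototropism-type gene AT1G67900, of the NPH3 family, had the largest rise among genes above 50 CPM in HRFR, from 83.1, 90.2 and 86.7 CPM to 393, 413 and 516 CPM (2.35 ± 0.10, adjusted p = 5.87e-11).

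Helix-loop-helix genes moved as a group. Of 14 tested genes whose products bind PIFs or other bHLH proteins, 10 rose and none fell, with a median log2 fold change of 1.36 against −0.00 over all genes. PIL1, a PIF relative, rose from 0.367, 0.354 and 0.529 CPM to 32, 29.4 and 51.4 CPM (6.47 ± 0.26, adjusted p = 2.69e-11). HFR1, which pairs with PIFs and keeps them off DNA, rose from 18.4, 13.7 and 14.9 CPM to 93.2, 91.3 and 139 CPM. PAR1, a further restrainer of PIFs, rose from 1.16, 1.41 and 1.72 CPM to 7.95, 11.4 and 10.4 CPM, and PAR2 from 10.5 to 11.8 CPM to 19.6 to 22 CPM. The PRE genes encode small HLH proteins that favour elongation by sequestering inhibitory partners. PRE1 rose from 11.5 to 14.4 CPM to 40.4 to 62.9 CPM, PRE6 from 10.6 to 12.5 CPM to 29.7 to 42.7 CPM, and PRE5 from 0.0661 to 0.214 CPM to 0.605 to 1.17 CPM. Growth-inhibiting AIF genes did not move together: AIF4 rose with a log2 fold change of 1.43, whereas AIF1 was at 7.27 to 10.7 CPM before and 5.37 to 6.75 CPM after (−0.53, inside the fold threshold). Genes for restraining and for growth-favouring HLH proteins thus rose within the same hour.

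HD-ZIP II genes encode homeodomain leucine zipper repressors, of which ATHB2 is a classic shade marker. Of 10 tested, 5 rose and none fell. ATHB2 went from 7.99, 6.8 and 6.48 CPM to 143, 143 and 187 CPM (4.47 ± 0.12, adjusted p = 2.65e-13). HAT2 went from 12.8, 14.5 and 13.2 CPM to 116, 118 and 139 CPM (3.20 ± 0.10, adjusted p = 5.38e-13), and ATHB4, HAT3 and HAT1 had log2 fold changes of 3.92, 1.37 and 1.05. The other 5 members had log2 fold changes of 0.01 to 0.32.

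Each auxin list from synthesis to response held called genes, beside 1.40% higher and 0.633% lower over all genes tested. Median log2 fold changes were lowest in the transport list (0.13) and the receptor and ARF list (0.04), where few members were called. Of 11 tested synthesis genes 4 rose, all of them YUCCA genes, which encode the flavin monooxygenases of the last step. YUC9 rose from 1.68, 1.38 and 1.22 CPM to 23.4, 25.5 and 34 CPM (4.26 ± 0.23, adjusted p = 7.31e-10) and YUC5 from 0.892 to 2.14 CPM to 5.09 to 8.56 CPM. YUC2 rose from 4.95 to 6.12 CPM to 13 to 16.5 CPM. TAA1, the aminotransferase that supplies the YUCCA substrate, was the only synthesis gene that fell, from 12.1, 12.5 and 11.7 CPM to 7.26, 6.93 and 4.84 CPM (−0.92 ± 0.12, adjusted p = 9.76e-05). The called YUCCA genes and TAA1 thus moved in opposite directions, while YUC1, YUC3, YUC4 and YUC6 were tested but not called. Of 9 tested inactivation genes 4 rose, among them GH3.5, which conjugates auxin to amino acids (25.7 to 30.9 CPM against 52.2 to 58.7 CPM). GH3.1 passed at an adjusted p of 0.0451 (log2 fold change 0.92) and lost the call when HRFR replicate 1 or 3 or LRFR replicate 1 or 2 was left out (0.69, 0.97, 0.87 and 0.89). Of 27 Aux/IAA genes, which encode repressors degraded in response to auxin, 10 rose, with IAA29 from 1.99, 2.67 and 2.02 CPM to 98.6, 91.2 and 134 CPM and IAA19 from 5.66 to 8.23 CPM to 67.3 to 89.1 CPM. ARF18 and AFB1 were the 2 called of 20 receptor and ARF genes. ARF18, a response factor gene, had 8.81 to 10.6 CPM in HRFR and 22.4 to 28.3 CPM in LRFR, and AFB1, a receptor gene, 24.4 to 28.2 CPM and 38.9 to 53.1 CPM. Among 22 tested transport genes PIN3 and AUX1, an efflux and an influx carrier, and ABCB19 rose. ABCB19 (102, 115 and 126 CPM against 178, 169 and 190 CPM) lay inside the fold threshold without HRFR replicate 1 or LRFR replicate 3 (0.57 and 0.60), and AUX1 without LRFR replicate 3 (0.57).

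SAUR genes encode short auxin-induced proteins that relieve phosphatase inhibition of the proton pump. Of 58 tested SAUR genes 25 rose and none fell. SAUR22 went from 1.62, 1.06 and 1.32 CPM to 29.5, 27.7 and 36.8 CPM. AT1G29490, also annotated as SAUR-like but without a SAUR name, was covered by 1, 1 and 2 reads in HRFR and 26, 31 and 30 reads in LRFR, a ratio of 25 (95% exact interval 9.43 to 93.9, counting error only). SAUR19 to SAUR24 are near-identical copies on chromosome 5, so the division of reads among them is uncertain. Not all members moved: the lowest log2 fold change in the list was −1.10, which did not pass the test, and the median of 0.32 lay well below those of the members named.

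In ethylene synthesis, 3 of 11 tested genes rose, all encoding ACC synthase, the committed step. ACS8 rose from 1.41, 0.707 and 1.32 CPM to 35.6, 35.1 and 51.2 CPM (5.11 ± 0.28, adjusted p = 9.98e-10), ACS4 from 0.363 to 0.668 CPM to 11.1 to 17.3 CPM, and ACS11 from 6.91 to 8.29 CPM to 14 to 20.6 CPM. No called gene was among 10 tested ethylene signalling genes, or 1 without the 2 libraries that stood apart. Brassinosteroid signalling was called in 9 of 20 tested genes, all higher. BEE1, a bHLH gene of early brassinosteroid response, rose from 0.643, 1.38 and 0.991 CPM to 11, 13.7 and 14.8 CPM. BIM1 rose from 65.3, 63.1 and 62.8 CPM to 239, 256 and 303 CPM (2.06 ± 0.07, adjusted p = 7.44e-12) and its relative BIM2 from 19.4 to 20.6 CPM to 38.1 to 45.5 CPM. The receptor gene BRI1 rose from 146, 146 and 164 CPM to 276, 271 and 351 CPM. In brassinosteroid metabolism, BAS1, which inactivates the hormone, rose from 11.1 to 13.6 CPM to 42.5 to 59.7 CPM, and BR6OX1, which makes castasterone, fell from 3.97 to 5.02 CPM to 1.69 to 2.46 CPM.

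Gibberellin metabolism was called in 3 of 15 tested genes, all GA 20-oxidases, which make the precursors of active gibberellin. GA20OX1 had 2.31 to 3.83 CPM in HRFR and 8 to 9.77 CPM in LRFR, GA20OX2 0.337 to 0.628 CPM and 1.99 to 2.31 CPM, and GA20OX3 0.0612 to 0.231 CPM and 0.66 to 1.34 CPM. Transcripts of proteins that sense or restrain gibberellin response also rose. The DELLA gene GAI went from 45.6, 44.7 and 43.1 CPM to 87.6, 87.1 and 92.7 CPM (1.00 ± 0.06, adjusted p = 3.44e-09), the DELLA gene RGL3 from 2.91 to 3.44 CPM to 6.16 to 8.43 CPM, and the receptor gene GID1A from 7.94 to 8.92 CPM to 12.4 to 14.1 CPM, out of 10 tested; GID1A lay at the fold threshold without HRFR replicate 2 (0.60). Cytokinin oxidases degrade cytokinin, and members split: CKX5 rose from 1.26 to 1.56 CPM to 9.7 to 16.4 CPM and CKX6 from 5.36 to 6.51 CPM to 17.7 to 20 CPM, whereas CKX7 fell from 16.8 to 19.5 CPM to 10.5 to 12.5 CPM, a call lost without LRFR replicate 1 (−0.59). None of 9 tested type-A response regulators, the usual read-out of cytokinin response, was called. NCED3, the rate-limiting enzyme of abscisic acid synthesis, was the called gene among 9 in its list, at 4.99 to 5.48 CPM in HRFR and 14.6 to 26.5 CPM in LRFR; 2 were called without the 2 libraries that stood apart. ST2A and ST2B, which encode sulfotransferases and lie next to each other on chromosome 5, rose from 0.918 to 1.39 CPM to 9.54 to 13.6 CPM and from 20.4 to 26.7 CPM to 69.4 to 99.1 CPM; they were named as neighbors after their values were seen, and ST2A acts on a hydroxylated jasmonate. Among 20 tested jasmonate genes 2 fell and none rose, LOX3 from 14.6, 7.7 and 9.09 CPM to 4.06, 3.52 and 6.62 CPM and LOX4 from 8.75, 3.77 and 4.3 CPM to 1.93, 2.53 and 3.46 CPM. Both encode lipoxygenases of jasmonate synthesis, both were highest in HRFR replicate 1, and LOX4 lost its call without that library (−0.63) and without LRFR replicate 1 or 2 (−0.92 and −1.09). LOX3 lost its call in a fit of only the 6 libraries compared (−1.16, adjusted p = 0.101), and 1 jasmonate gene was called without the 2 libraries that stood apart.

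**Figure D3:**
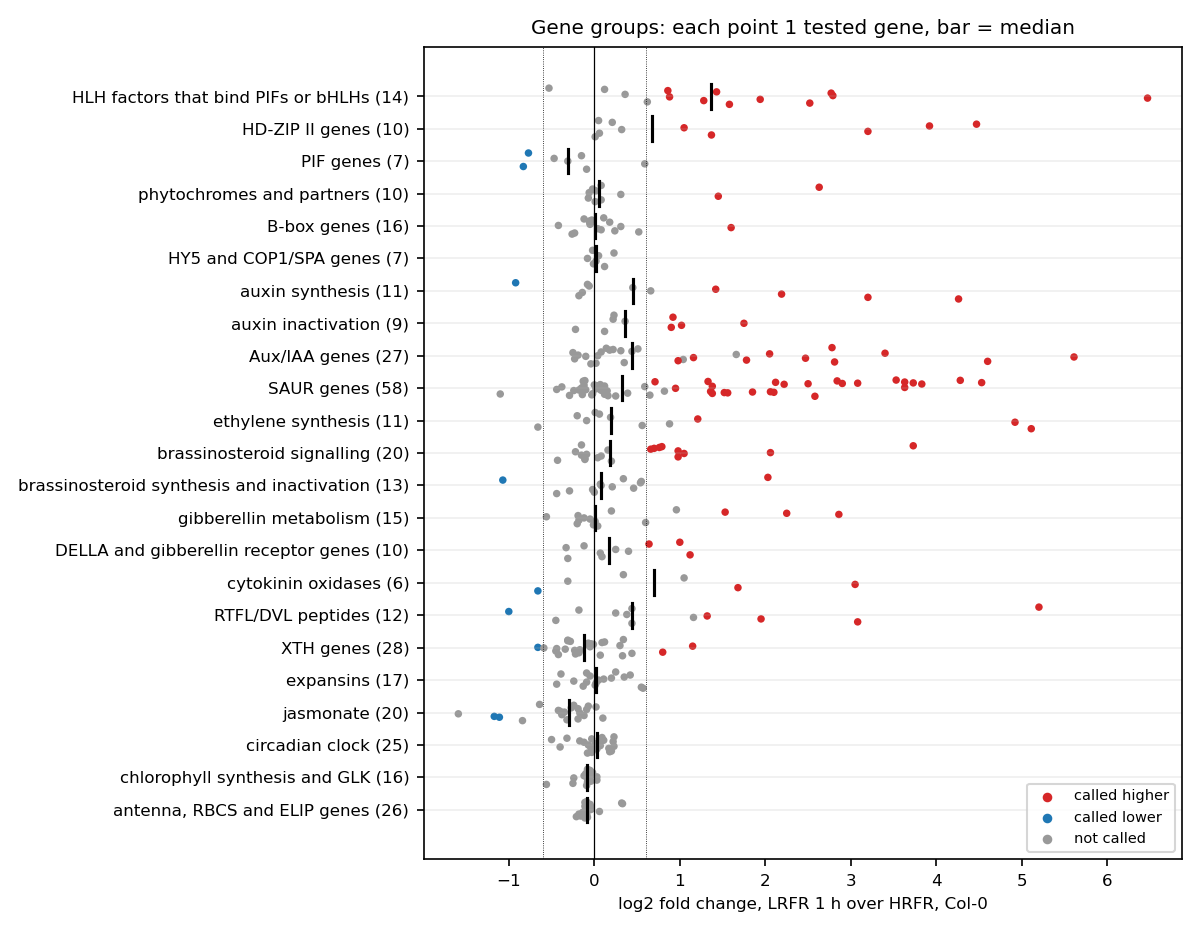
Log2 fold change after 1 h of LRFR in Col-0 for each tested gene of 23 gene groups, with the number tested in brackets, a black bar at the median, dotted lines at ±0.6 and called genes in color. The HLH group has the highest median (1.36), while the clock and antenna groups hold no called gene.

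Peptide and cell wall genes gave mixed pictures. RTFL/DVL genes encode small peptides that limit growth when overproduced. Of 12 tested 4 rose and 1 fell: DVL1 went from 0.428, 0.236 and 0.496 CPM to 11.7, 14.5 and 17.8 CPM (5.20 ± 0.26, adjusted p = 3.11e-10), DVL6 from 13.4 to 15.8 CPM to 49.1 to 67.4 CPM, and DVL17 in the other direction, from 1.81, 1.85 and 1.85 CPM to 1.1, 0.807 and 0.822 CPM. None of 17 tested expansins, which loosen walls, was called (log2 fold changes −0.44 to 0.57). Among 28 tested XTH genes, which cut and rejoin xyloglucan, XTH22 rose from 57.3, 47.5 and 53 CPM to 108, 133 and 110 CPM and XTH33 from 4.69 to 6.03 CPM to 7.88 to 10.6 CPM, the latter not without HRFR replicate 2 or 3 or LRFR replicate 3 (0.77, 0.73 and 0.69). XTH24 was called lower, at 201, 142 and 152 CPM against 94.9, 98.2 and 120 CPM, and lost the call without HRFR replicate 1 or 3 or LRFR replicate 1 or 2 (−0.50, −0.72, −0.60 and −0.62). MIPS1, the first enzyme of inositol synthesis, rose from 187, 190 and 203 CPM to 420, 426 and 644 CPM. The potassium channel gene KAT1 rose from 24.1, 28 and 28.3 CPM to 118, 126 and 163 CPM. KAT1 was also the only called one of 8 guard cell markers. The other 7 summed to 67.4 to 73.3 CPM in HRFR and 57 to 65.9 CPM in LRFR, with log2 fold changes of −0.57 to 0.08, so they were not higher with KAT1. The stomatal lineage list, at 43.5 to 62.4 CPM and 53.5 to 56.3 CPM, overlapped between groups and held no called gene.

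Falls were smaller than rises but included abundant transcripts. LTP, a lipid transfer protein gene, fell from 79.4, 58.9 and 61.8 CPM to 18.4, 18.3 and 26.3 CPM (−1.67 ± 0.14, adjusted p = 3.66e-07). BXL1, a cell wall beta-xylosidase, fell from 309, 276 and 299 CPM to 141, 153 and 139 CPM (−1.03 ± 0.11, adjusted p = 8.13e-06). PME44, a pectin methylesterase, fell from 89.3 to 119 CPM to 45.4 to 66.8 CPM, and AT1G51805, a leucine-rich repeat kinase, from 207, 170 and 170 CPM to 72.7, 71.9 and 103 CPM. IGMT4, an O-methyltransferase gene of indole glucosinolates, fell from 81.9 to 108 CPM to 41.9 to 60.7 CPM. AT1G78170, annotated as an E3 ubiquitin ligase, fell from 25.8, 21.7 and 23.1 CPM to 9.81, 8.84 and 10.1 CPM (−1.30 ± 0.10, adjusted p = 6.03e-08), with little spread inside either group. TINY2, an AP2-type transcription factor gene, went from 4.03 to 4.44 CPM down to 1.54 to 2.08 CPM. AT5G62730, annotated as a major facilitator transporter, fell from 3.3 to 4.74 CPM to 1.28 to 1.72 CPM. For ANNAT4 (45.8, 29.9 and 28.3 CPM against 14.2, 14.7 and 16.9 CPM) and AT5G17700, a MATE efflux gene (22.3, 12.3 and 14 CPM against 6.85, 6.56 and 6.1 CPM), HRFR replicate 1 was the highest library. AT5G45850, the largest fall among genes reaching 1 CPM, lost its call without that library (−1.53 against −1.94). UGT85A3 lost it without HRFR replicate 1 or 2 or LRFR replicate 1 or 2 (−1.04, −1.36, −1.28 and −1.15), and AT2G39400 without HRFR replicate 1 or LRFR replicate 1 or 2 (−1.14, −1.19 and −1.11).

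Several programs held no called gene after 1 h. They were the circadian clock (25 tested), chlorophyll synthesis with GLK factors (16), antenna, RBCS and ELIP genes (26), flavonoid enzymes (11), salicylate defence (8), nitrate (8) and iron deficiency genes (10). Over all tested genes 1.40% were called higher and 0.633% lower, so lists this short can hold no call without differing from other genes. The same limit applies to the expansin, type-A response regulator, and HY5 and COP1/SPA lists. Without the 2 libraries that stood apart, 1 chlorophyll and 1 nitrate gene were called lower. The antenna list, which marks shoot mesophyll, summed to 125834 to 147243 CPM in HRFR and 115163 to 147126 CPM in LRFR. Root cell markers (11 tested) summed to 143 to 216 CPM and 144 to 163 CPM. These sums do not measure the share of each tissue in the seedlings. Of 3 tested flower organ genes the sums stayed at 1.5 to 1.96 CPM and 1.64 to 3.01 CPM. Dividing-cell markers also overlapped, at 83 to 136 CPM and 102 to 153 CPM. The list for touch, heat, cold and wounding had a single called gene, XTH22, also known as TCH4. Its other 15 tested genes summed to 130 to 179 CPM in HRFR and 153 to 184 CPM in LRFR, with a median log2 fold change of −0.04. Among 10 sugar starvation genes only DIN10 was called (151 to 180 CPM against 95.4 to 103 CPM), and the other 9 overlapped in sum, at 278 to 327 CPM and 249 to 296 CPM, with a median of −0.02.

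The same hour of LRFR was compared in the triple mutant, whose libraries share none with Col-0. In pif457 20 genes were higher (0.0967%) and 0 lower; an unadjusted p below 0.05 with the same fold gave 117 lower genes in edgeR and 99 in DESeq2, and DESeq2 called 2. Of the 290 Col-0 rises, 19 were called higher in pif457 (6.55% of the Col-0 rises and 95% of those of pif457), with a median log2 fold change of 0.19 over all 290. For the 131 Col-0 falls the median was −0.08 and no gene was called. The sign in pif457 was that in Col-0 for 230 of the 290 rises (79.3%) and 87 of the 131 falls (66.4%). A gene not called in pif457 may therefore still respond there more weakly. The difference of the responses was tested as an interaction, called in 327 genes (1.58%), which uses the same Col-0 libraries as the calls. It reached 182 of the rises and 55 of the falls. Without the 2 libraries that stood apart it was called in 452 genes, 204 of the rises and 63 of the falls, and pif457 had 29 genes higher, 23 of them shared with Col-0, and 1 lower. Positive interactions, 114 with all libraries, were 205 without Col-0 LRFR replicate 3, 70 and 71 without Col-0 LRFR replicates 2 and 1, 60 without pif457 HRFR replicate 2 or 3, and 72 and 74 without pif457 LRFR replicates 2 and 3. KAT1 was at 12.6 to 13.7 CPM in HRFR and 14.5 to 15.6 CPM in LRFR in pif457 (interaction −2.14, adjusted p = 7.44e-07). YUC8 was at 2.17 to 2.35 CPM and 1.86 to 2.69 CPM (interaction −3.17, adjusted p = 2.8e-05), and HAT2 at 15.2 to 19 CPM and 19 to 19.9 CPM (interaction −2.99, adjusted p = 1.31e-09).

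A small set was still called in pif457. It included much of the SAUR array on chromosome 5: SAUR19, SAUR20, SAUR22, SAUR23 and SAUR24 were called in the mutant, with SAUR22 at 0.132, 0.266 and 0.331 CPM before and 2.71, 3.55 and 2.82 CPM after (3.64, adjusted p = 3.07e-06). Its interaction of −0.89 did not pass (adjusted p = 0.6), while its level in LRFR was 27.7 to 36.8 CPM in Col-0. ATHB2 rose in pif457 from 4.22 to 4.6 CPM to 17.8 to 21.4 CPM, a log2 fold change of 2.10 against 4.47 in Col-0, and the interaction was called (−2.37, adjusted p = 5.3e-07). IAA29 rose from 0.266 to 0.367 CPM to 1.64 to 1.75 CPM, and HFR1 from 1.95 to 3.35 CPM to 7.32 to 9 CPM. The lncRNA AT5G02865 inside the SAUR array rose from 0.164 to 0.294 CPM to 1.54 to 1.6 CPM. XTH22 had log2 fold changes of 1.15 in Col-0 and 0.98 in pif457 (adjusted p = 0.0968), with an interaction of −0.18 that did not pass.

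In the libraries labelled hfr1, 339 genes were higher (1.62%) and 183 lower (0.876%) of 20887 tested. Of genes tested in both fits, 260 rises were shared, 89.7% of those in Col-0 and 77.6% of the 335 in hfr1, and 112 falls were shared, 85.5% and 61.5%. The sign was the same for 288 of the 290 rises and all 131 falls. Without the 2 libraries that stood apart 260 rises (85.2% and 72.8%) and 104 falls (84.6% and 53.3%) were shared. No interaction with hfr1 was called by edgeR (513 genes at an unadjusted p below 0.05; DESeq2 gave 434 and called 4, and edgeR called 1 without those 2 libraries). Median log2 fold changes of the Col-0 rises and falls in hfr1 were 1.18 and −0.89. PAR1 had 3.73 in hfr1 against 2.79 in Col-0, and ST2A 4.52 against 3.18, differences that did not pass the interaction test. FEZ, a NAC gene with 0, 2 and 2 reads before and 15, 12 and 7 after in Col-0, was at 0.0999 to 0.144 CPM before and 0.11 to 0.12 CPM after in hfr1 and did not pass the interaction test; it was chosen after its values were seen.

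**Figure D4:**
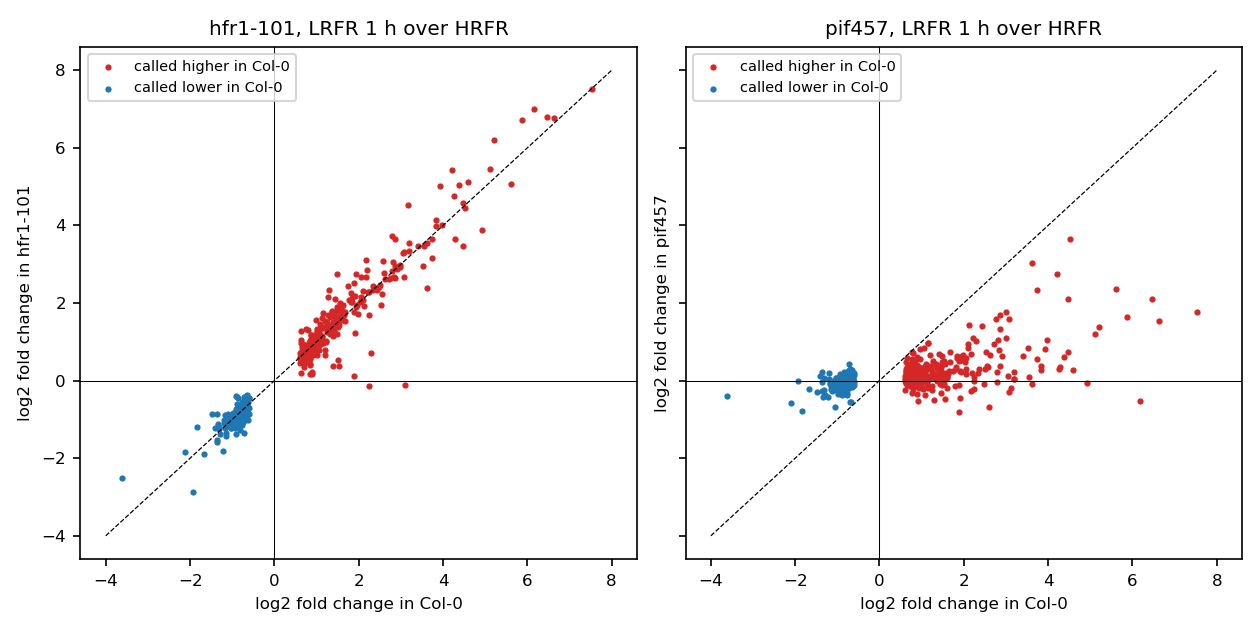
Log2 fold change after 1 h of LRFR in libraries labelled hfr1-101 (left) and in pif457 (right) against that in Col-0, for the genes called in Col-0; the dashed line marks equal change. Points follow the line in hfr1 (medians 1.18 and −0.89) and center near 0 in pif457 (medians 0.19 and −0.08).

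Levels after 25 h of LRFR, in 3 further Col-0 libraries, show how long single responses lasted; the 25 h against 1 h test shares the 1 h libraries with the main contrast. GONST5 had come down to 0.123 to 0.449 CPM (−4.12 ± 0.32 against 1 h, adjusted p = 2.49e-07) and ATHB4 to 3.45 to 3.59 CPM (−2.87 ± 0.14, adjusted p = 1.76e-09), both still above all HRFR libraries (0.0306 to 0.0991 CPM and 1.44 to 1.92 CPM). PAR1 was at 1.05 to 1.17 CPM (−3.15 ± 0.20, adjusted p = 3.05e-08). HFR1 remained at 134 to 153 CPM, with a difference from 1 h of 0.42 that did not pass (adjusted p = 0.0865). CKX5 and MIPS1 were at 11.8 to 17.1 CPM and 423 to 621 CPM, with differences of 0.19 and −0.02 that did not pass either. Of the falls, LTP was at 53.9 to 72 CPM (1.63 ± 0.14, adjusted p = 8.09e-07), inside its HRFR range apart from the lowest library, whereas BXL1 was at 86.5 to 132 CPM (−0.36 ± 0.11, adjusted p = 0.0455).

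DNA words were counted around the starts of the called genes as a description, with no test. In the window from 250 bases before to 50 after the start, read on both strands, the G-box CACGTG was present in 14.9% of 288 rising genes, 3.88% of 129 falling genes and 8.79% of 20145 tested genes. For the PBE-box CACATG the shares were 25.3%, 15.5% and 13%, and they were 34.3% among the 70 genes that rose by more than 2 on the log2 scale. The auxin response elements TGTCTC and TGTCGG were in 19.1% and 7.29% of rising genes against 13.7% and 5.58% of all. The ABRE core ACGTGG, which overlaps a G-box wherever that is followed by G, was in 16% against 10.9%. The evening element AAAATATCT was in 3.47% against 2.95%, the I-box GATAAG in 17% against 14.8% and the brassinosteroid element CGTGCG in 3.12% against 2.15%. In the window from 1000 bases before to 50 after the start, the shares were 30.2% against 17.2% for the G-box, 59.7% against 39.4% for the PBE-box, 47.9% against 42.1% for TGTCTC, 12.5% against 7.67% for the evening element, 50.7% against 42.7% for the I-box and 5.9% in both for the brassinosteroid element.

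G-boxes were also counted over more of the upstream DNA. In the 3000 bases before the start, at least 1 G-box was present in 59.4% of rising, 29.5% of falling and 33.3% of all tested genes, and at least 3 in 13.2%, 0.775% and 2.61%. In bins of 250 bases, the nearest held a G-box in 13.5% of rising and 7.37% of all genes. From 750 to 1500 bases before the start each bin held one in 9.38% of rising genes and in 2.97% to 3.33% of all genes, and from 1500 to 3000 bases in 4.17% to 6.25% and 2.87% to 3.2%. PIL1 (1222, 1211 and 1093 bases), FLP1 (1200 bases), DVL1 (1055 bases) and SAUR10 (1241 bases) have theirs there, as the PIL1 sequence shows. GONST5, AT3G21330, ACS8, SAUR22 and AT1G29490 have none in 3000 bases, which says only that these letters are not in that window. Called genes also had long upstream intervals, with a median of 2508 bases to the next protein-coding gene for rises and 2446 for falls against 855 for all. Among genes with an interval of at least 3000 bases, the share with a G-box was 64.3% of 129 rising, 39.6% of 53 falling and 36.2% of 3699 tested genes.

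**Figure D5:**
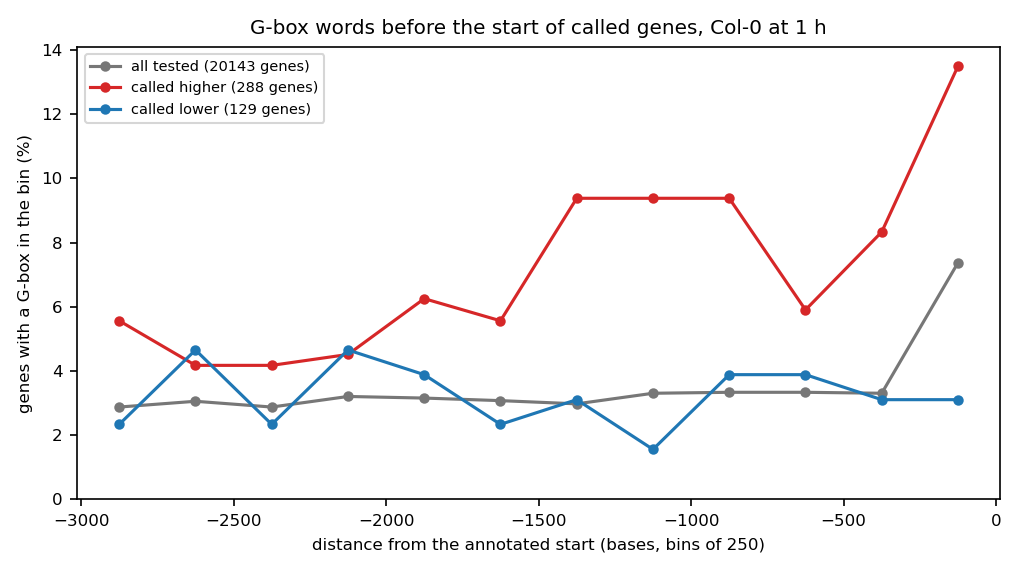
Share of genes with a G-box in each 250-base bin of the 3000 bases before the annotated start, for genes called higher (288), called lower (129) and all tested (20143) in Col-0 at 1 h. Rising genes reach 13.5% in the nearest bin against 7.37% of all genes, and 9.38% in the 3 bins from 750 to 1500 bases.

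Gene structure and position differed too. Single-exon genes made up 36.5% of rising, 21.7% of falling and 13.8% of all tested genes, and 13 of the 18 protein-coding genes also called higher in pif457. The intronless SAUR genes are part of these counts. Rising genes were often neighbors: 82 of the 290 (28.3%) lay next to another rising gene, whereas 2.72% of tested genes had a rising neighbor. They formed 48 adjacent pairs, of which 16 involved a SAUR array and 5 overlapped. Among the overlapping pairs, ACDO1 and CTF7 lie on the same strand, so no strand setting of counting separates their shared bases. DGR2 and AT5G25470 lie on opposite strands, and the strand setting is not stated. Reads of the overlapping pairs therefore cannot be assigned with certainty. Among falls 17 of 131 (13%) had a falling neighbor, against 1.27% of tested genes. HFR1 and AT1G02350 are divergent with 1937 bases and 2 G-boxes between them; AT1G02350 rose from 2.4 to 3.34 CPM to 19.1 to 24.6 CPM. AT3G21320 and AT3G21330 are divergent with 5351 bases and 4 G-boxes between them. IAA29 shares 3435 bases and 4 G-boxes with AT4G32272, which went from 6.56 to 7.56 CPM to 12.3 to 14.2 CPM (0.90 ± 0.10, adjusted p = 6.04e-06). HFR1 and AT1G02350 had log2 fold changes of 2.77 and 2.85, IAA29 and AT4G32272 of 5.61 and 0.90. These pairs are examples from 14 head-to-head pairs of rising genes. Some of the other pairs held no G-box between the genes, among them SAUR50 with SAUR1 (8103 bases), SAUR22 with SAUR23 (692 bases) and SAUR28 with SAUR27 (509 bases).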

How the data were processed

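Polyadenylated RNA of whole-seedling pools was sequenced by the authors from stranded libraries; adapters were removed with cutadapt, reads aligned to TAIR10 with STAR and gene counts made with HTSeq, per the labels. The deposited values are raw read counts per gene (34262 genes); the strand setting of counting is not given in the sources used here. Reads in no gene (6.56% to 6.74% of the 6 libraries) were left out. Groups followed the labels. Counts of 18 libraries (Col-0 and pif457, 6 group means) were fitted with edgeR 4.0.16 in R 4.3.3 (TMM, filterByExpr, quasi-likelihood F-test, Benjamini-Hochberg adjustment over all genes tested). Calls needed a log2 fold change beyond ±0.6 with an adjusted p below 0.05, and interactions the latter only. The hfr1 contrasts came from a 27-library fit with 9 group means. SE is the absolute log2 fold change divided by the square root of F. On simulated counts (20613 genes) 77 of 100 genes changed by 1 and 95 of 100 changed by 2 on the log2 scale were called, with 9 false calls. Simulated counts were drawn independently for each gene and library, so no library stood apart as HRFR replicate 1 did, an easier setting than the data. DESeq2 1.42.0, other scalings, filters, thresholds and left-out libraries were alternatives.

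Named genes are the 15 largest rises and falls with non-overlapping libraries and a mean of at least 1 CPM in the higher group, the 8 largest among genes with 50 CPM or more in HRFR, up to 4 called members per gene list with uncalled members beside them, genes the study names, up to 10 genes also called in pif457 and the 6 largest interactions. Outside this rule, chosen after their values were seen, are those marked in the text and TAA1, PAR2, PRE1, PRE6, AIF4, HAT1, BRI1, DVL17, SAUR20, AT5G66580, AT5G54148, AT1G23985, LSU3, and the neighbors AT4G32272, ACDO1, CTF7, DGR2 and AT5G25470. The comparison, gene lists and rules were chosen with earlier results of these data known. Lists were matched by symbol or identifier to RefSeq TAIR10.1 (32548 genes, 95%), which also gave coordinates and sequences; 1 list entry whose symbol belonged to an unrelated protein was removed after the data were seen. Col-0 HRFR and LRFR 1 h libraries of equal replicate number were not treated as pairs (correlations of deviations −0.325, 0.0615 and −0.0972). Other groups were not checked in this way. Along the main axis of deviation, replicate 1 of pif457 was at −8.21 in HRFR, −9.92 at 1 h and −2.44 at 25 h. Replicate 1 of Col-0 LRFR 1 h was at 9.82, so a deviation shared by some replicate 1 libraries remains possible.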

Additional observations from a re-analysis of the deposited data

Results flagged for a closer look

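The response to 1 h of LRFR differed between Col-0 and pif457 in 327 genes by the interaction test, and the 6 largest differences among genes that were called in Col-0 and passed the interaction test are given as the log2 fold change in pif457 minus that in Col-0. GONST5 differed by −6.71 (adjusted p = 0.000791), with 0.0658 to 0.11 CPM in HRFR and 0 to 0.114 CPM in LRFR in pif457. AT3G21330 differed by −5.10 (adjusted p = 0.000141) and reached 1.18 to 2.1 CPM in pif457 after LRFR against 69.7 to 106 CPM in Col-0. ACS4 differed by −4.99 (adjusted p = 7.44e-07); in pif457 it was at 1.07 to 1.58 CPM in HRFR, above the 0.363 to 0.668 CPM of Col-0, and at 1.15 to 1.64 CPM in LRFR. PIL1 differed by −4.37 (adjusted p = 0.000628), IAA5 by −4.33 (adjusted p = 0.00219) and FLP1 by −4.23 (adjusted p = 0.00448). AT3G21320, the largest rise in Col-0, differed by −5.76 without passing (adjusted p = 0.608), with 0 to 0.0332 CPM in HRFR and 0 to 0.0763 CPM in LRFR in pif457.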

How the results depend on the processing

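Among genes named by the rule or by the study and called in Col-0, none reversed its direction in the alternatives where it was tested. Genes named outside the rule, uncalled genes, and values of single genes in pif457, hfr1 and the interactions were not checked for direction. Calls with no fold threshold came to 424 higher and 348 lower genes, and a threshold of 1 left 171 higher and 34 lower. DESeq2 gave 31 higher and 2 lower genes in pif457, 203 positive interactions with pif457 and 4 with hfr1. Leaving out 1 library gave 269 to 355 higher and 88 to 199 lower genes in Col-0 (99 without HRFR replicate 1), 16 to 26 higher in pif457, 60 to 205 positive and 167 to 313 negative interactions with pif457 (114 and 213 with all libraries), and 0 to 3 positive interactions with hfr1. With only the 6 libraries compared 255 genes were higher and 93 lower, and AT5G45850, UGT85A3, AT2G39400, LOX3, LOX4, AT1G55450, XTH24 and GH3.1 lost their calls. The labels do not say whether libraries of equal replicate number were grown or processed together. A replicate block gave 291 higher and 134 lower genes in Col-0, 22 and 0 in pif457, and 346 and 181 in hfr1. With the block, 124 positive and 216 negative interactions with pif457 and 0 with hfr1 were called. The block ended 1 named call, GH3.1. Without the 2 libraries that stood apart, 198 positive and 254 negative interactions with pif457, 1 lower gene in pif457 and 1 positive interaction with hfr1 were called, and list counts changed to 2 abscisic acid genes, 3 auxin inactivation, 4 ethylene synthesis, 1 ethylene signalling and 1 PIF gene higher, and 1 jasmonate, 1 chlorophyll, 1 nitrate and 0 XTH genes lower. The G-box share of rising genes was 30.2% in 1000 bases and 59.4% in 3000 bases, that of falling genes 13.2% and 29.5%. Genes under about 1 CPM rest on few reads at this depth. Causes of these shifts were not tested.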

Other observations

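Falling genes were unevenly spread over the chromosomes, which was noticed after the calls were made and was not tested. On chromosome 3, 11 of 4057 tested genes fell (0.271%), against 0.604% to 0.859% on the other chromosomes. Rises ranged from 1.29% to 1.5% of tested genes per chromosome, with 1.48% on chromosome 3.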
